A study of Mus musculus with 6 samples.

Results

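The 10 genes described here are the channels and transporters that move ions across the airway surface: Cftr, Ano1, Slc26a4, Slc26a9, Slc12a2, Scnn1a, Scnn1b, Scnn1g and Atp1b1, with the apical scaffold gene Slc9a3r1. They were chosen by name, and their probes were found on the array as non-control probes whose RefSeq accession belongs to 1 of these genes. This gave 13 probes for all 10 genes, of 22910 genes with a named probe on the array. The samples were 2D-MAOs, lung airway epithelial cells of C57BL/6 mice, expanded as organoids and plated to grow as a sheet. Control 2D-MAOs (n = 3) received no TGF-β1. TGF-β1-treated 2D-MAOs (n = 3) received TGF-β1 from day 3. Both groups were kept from that day in medium lacking noggin, an inhibitor of BMP signalling, and A83-01, an inhibitor of the TGF-β type I receptor, and all 6 cultures were harvested on day 7. The labels name no genetic alteration, and the TGF-β1 concentration used for the arrays and the age of the mice are not given in the sources used here. RNA of each culture was hybridised to 1 single-dye Agilent array, and values are normalized log2 signals, which can be compared between arrays for 1 probe but not between probes.

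Airway epithelium sets the depth of the liquid on its surface by secreting chloride and absorbing sodium. Chloride enters the cell from below through the cotransporter encoded by Slc12a2 and leaves through apical channels, of which CFTR opens on cyclic AMP and ANO1 on calcium. Sodium enters through the apical channel ENaC, built from the α, β and γ subunits encoded by Scnn1a, Scnn1b and Scnn1g, and is pumped out below by the Na+/K+-ATPase, whose β subunit Atp1b1 encodes. In the mouse airway CFTR is most abundant in ionocytes, a rare cell type, and the calcium-activated route carries much of the chloride secretion.

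TGF-β1 replicate 3 stood apart from the other treated cultures. Over all genes tested its profile lay 61.1 and 62.3 log2 units (Euclidean distance) from TGF-β1 replicates 1 and 2, which lay 32.3 from each other, and 54.4 to 60.9 from the 3 controls. Its nearest array was control replicate 3, and these 2 arrays shared slide row 2, the other 4 being in slide row 1. Values without TGF-β1 replicate 3 are therefore given beside those with all 6 arrays for the 9 genes tested. Markers of the labelled tissue were present, with all 10 epithelial markers, Nkx2-1 and Epcam among them, well above background on all 6 arrays. The same held for all 7 type 1 alveolar markers found on the array, of 8 listed, Aqp5, Pdpn and Ager among them. The paper describes alveolar cells that stain for caveolin as predominant in such cultures. Markers of other lung cells were present in part: 5 of 8 leukocyte markers, 3 of 8 type 2 alveolar markers and 1 of 8 endothelial markers were well above background on all 6 arrays, whereas the defining genes Ptprc, Sftpc and Cdh5 were on 0 arrays. The methods call the cultures biological replicates, and p-values measure only the spread between these 6 cultures. In such bulk RNA, fewer cells of a type and less RNA per cell cannot be told apart.

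The stretches of 250 bases before a RefSeq start site of Ano1 and Slc26a9, the 2 members with the largest positive differences, and of Cftr, whose signal was lower, are shown from the GRCm38.p6 assembly, 5′ to 3′ on the strand of the gene. The Ano1 stretch is chr7:144738574-144738823 on the minus strand, the Slc26a9 stretch chr1:131743772-131744021 on the plus strand and the Cftr stretch chr6:18170437-18170686 on the plus strand. The Ano1 stretch precedes a start that lies inside the span of the gene, downstream of its outermost start, whereas the other 2 precede the outermost start. Capitals mark the E-box CAGGTG, the letters bound by the repressors of the ZEB and SNAIL families.

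Ano1: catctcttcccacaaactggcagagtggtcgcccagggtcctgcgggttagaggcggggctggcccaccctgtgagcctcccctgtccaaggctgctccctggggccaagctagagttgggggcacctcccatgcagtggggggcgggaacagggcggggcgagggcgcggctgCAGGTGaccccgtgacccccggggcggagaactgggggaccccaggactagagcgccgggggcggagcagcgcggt

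Slc26a9: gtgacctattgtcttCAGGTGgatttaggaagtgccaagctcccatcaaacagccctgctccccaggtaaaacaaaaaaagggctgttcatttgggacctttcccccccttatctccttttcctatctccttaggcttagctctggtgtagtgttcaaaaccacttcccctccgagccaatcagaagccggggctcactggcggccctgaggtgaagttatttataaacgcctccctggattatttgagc

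Cftr: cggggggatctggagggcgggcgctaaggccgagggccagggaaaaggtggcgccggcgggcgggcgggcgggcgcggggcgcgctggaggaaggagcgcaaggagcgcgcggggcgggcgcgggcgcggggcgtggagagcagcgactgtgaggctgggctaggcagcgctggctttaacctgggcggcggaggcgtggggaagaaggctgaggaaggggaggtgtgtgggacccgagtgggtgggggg

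The E-box began 76 bases before the start site in Ano1 and 235 bases before it in Slc26a9, and the Cftr stretch held none. A search of both strands also covered the Smad-binding letters GTCTAGAC and CAGACA and the AP-1 letters TGACTCA or TGAGTCA, none of which overlaps another motif of the search. Of the 8 members with a stretch in the RefSeq table, 3 held CAGGTG (Scnn1g held 2 copies, in opposite orientations) and none held the other motifs. Among all 32851 RefSeq promoters, 17.2% held CAGGTG, 17.1% CAGACA, 4.46% an AP-1 site and 0.167% GTCTAGAC. The Cftr stretch was 76.4% G and C and the Ano1 stretch 72%, against 50% for Slc26a9 and a median of 52.4% over all promoters. These matches describe the letters only, and the arrays hold no measurement of binding.

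Of the 10 genes, 9 could be tested, and no member passed an adjusted p of 0.05 in limma with all 6 arrays, against 2.04% of the 14345 genes tested (1.63% higher and 0.404% lower). At an unadjusted p under 0.05 limma gave 3 members (Ano1, Cftr and Scnn1a), whereas 22.2% of all genes met it. The methods' t-test gave 0 members, adjusted or not, beside 17.1% of all genes unadjusted and 0.0627% adjusted. The groups did not overlap for the same 3 members, a share close to the 26.4% of all genes without overlap. The estimate was positive for 4 members and negative for 5, with a median log2 difference of -0.32 against -0.03 over all genes tested. Without TGF-β1 replicate 3, Ano1 and Slc26a9 passed the adjusted threshold in limma, both higher with TGF-β1, against 9.08% of all genes higher in that comparison.

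**Figure D1:**
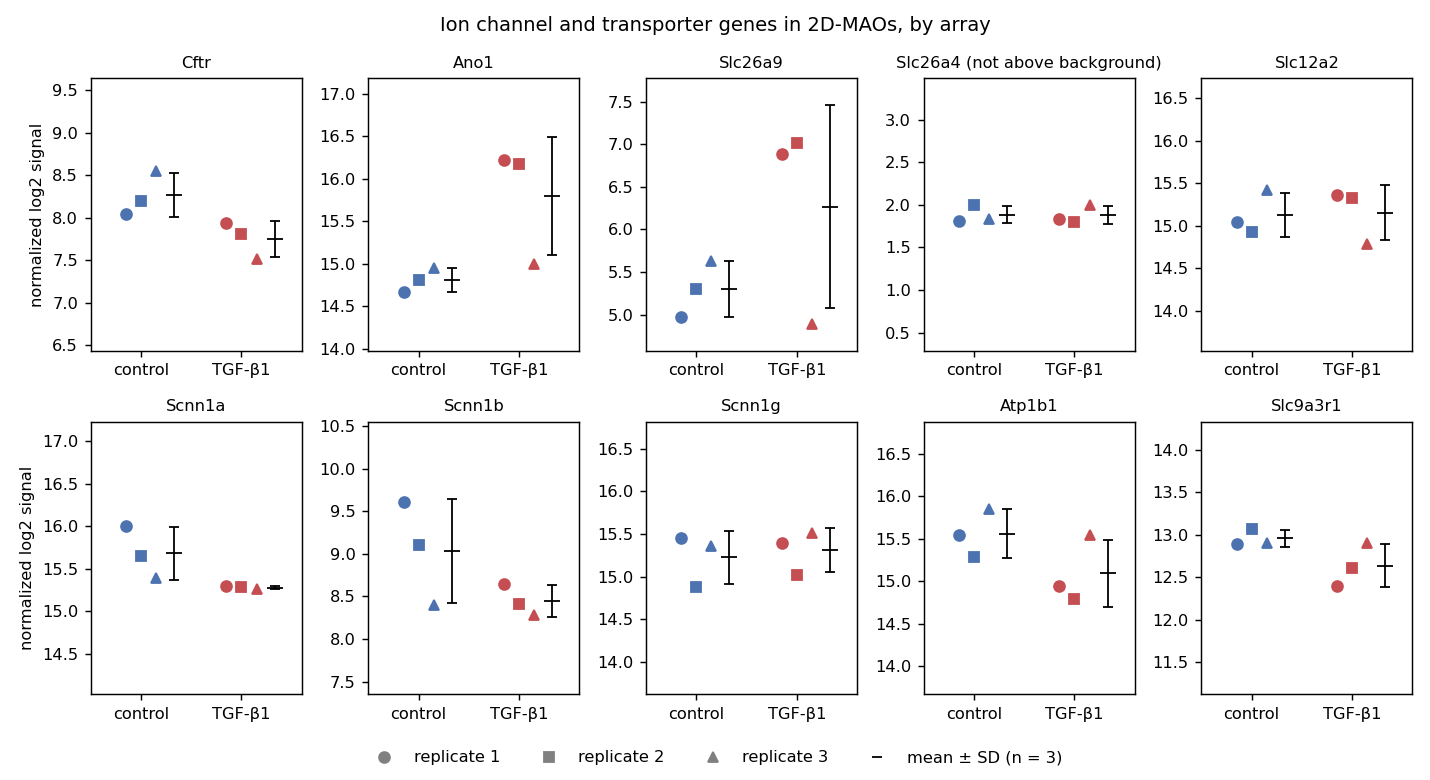
Normalized log2 signal of each of the 10 genes on each array (y axis, a range of its own per gene), for control (blue) and TGF-β1-treated (red) 2D-MAOs. Marker shape gives the replicate and black bars the mean ± SD (n = 3). For Ano1 and Slc26a9, TGF-β1 replicates 1 and 2 lie far above the controls and replicate 3 lies at their level, and Slc26a4 stayed at background level throughout.

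Ano1, the calcium-activated chloride channel, read 14.67, 14.81 and 14.96 in control replicates 1 to 3 and 16.22, 16.17 and 14.99 in TGF-β1 replicates 1 to 3. TGF-β1 replicates 1 and 2 were clearly above every control, and replicate 3 lay above the highest control by a margin within the spread of the controls, so that the groups only just failed to overlap. The group means were 14.81 ± 0.14 without and 15.79 ± 0.69 with TGF-β1 (SD, n = 3 each), a log2 difference of 0.98 (SE 0.33, 95% interval 0.21 to 1.76, 1.98-fold). This missed the threshold in limma (adjusted p = 0.164), and the exact permutation test gave p = 0.1, the smallest that 3 against 3 allows. Without TGF-β1 replicate 3 the log2 difference was 1.38 (SE 0.12, 2.61-fold, limma adjusted p = 0.00473). The difference was 1.46 between the arrays in slide row 1 and 0.04 between the single pair in row 2.

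Slc26a9 encodes an apical chloride transporter of the SLC26 family. Its signal was 4.98, 5.30 and 5.62 in controls, and 6.89, 7.02 and 4.89 with TGF-β1. Replicate 3 of the treated cultures was the lowest of all 6 arrays and the other 2 treated cultures were the highest, so the groups overlapped. The log2 difference of 0.97 (SE 0.56, 95% interval -0.35 to 2.29) did not pass in limma (adjusted p = 0.333). It became 1.66 (SE 0.20, 3.15-fold, limma adjusted p = 0.00882) without TGF-β1 replicate 3, and 0.66 and 0.59 without replicates 1 and 2. By slide row it was 1.82 in row 1 and -0.73 in row 2. The probe was dim, with a spot 1.96 to 2.27 times its local background in controls and 1.81 to 5.08 times with TGF-β1, and background correction by normexp lowered the difference to 0.51.

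Cftr, the chloride and bicarbonate channel that is mutated in cystic fibrosis, had a negative estimate. Its detected probe gave 8.05, 8.20 and 8.56 in controls and 7.94, 7.81 and 7.52 with TGF-β1, so that every treated culture lay below every control. The log2 difference was -0.51 (SE 0.17, 95% interval -0.93 to -0.10, 0.702 times the control), which did not pass in limma (adjusted p = 0.170; exact permutation p = 0.1). TGF-β1 replicate 3 had the lowest value of the 6 arrays, and without it the difference was -0.39 (limma adjusted p = 0.160). Within slide row 1 it was -0.25, and between the pair in row 2 it was -1.03. The second Cftr probe, at 1.76 to 3.46, was not seen well above background anywhere and adds no measurement.

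Slc12a2 encodes the sodium, potassium and chloride cotransporter that loads the cell with chloride. It read 15.04, 14.93 and 15.42 in controls and 15.36, 15.32 and 14.79 with TGF-β1. The groups overlapped, with a log2 difference of 0.03 (95% interval -0.46 to 0.51, limma adjusted p = 0.949) that turned to -0.24 when arrays were scaled to their 75th percentile and was 0.21 without TGF-β1 replicate 3. Slc26a4, which encodes the chloride and bicarbonate exchanger pendrin, had 1 probe, which no array showed well above background (spot 1.17 to 1.58 times its local background), so no difference is given for it.

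On the sodium side, the estimates for the α and β subunits of ENaC were lower with TGF-β1 and that for the γ subunit was near 0. Scnn1a read 16.00, 15.65 and 15.39 in controls and 15.30, 15.28 and 15.26 with TGF-β1. The treated cultures lay close together (SD 0.02, n = 3) and all below the lowest control, while the controls were spread more widely (SD 0.31, n = 3). The log2 difference was -0.40 (SE 0.16, 95% interval -0.79 to -0.01, limma adjusted p = 0.217; exact permutation p = 0.1). A second Scnn1a probe gave 11.11, 10.63 and 10.25 in controls against 9.98 to 10.04 in the 3 treated cultures, again without overlap, a difference of -0.66. TGF-β1 replicate 3 did not stand apart here, and without it the difference was -0.39 (limma adjusted p = 0.193), but without control replicate 1 it was -0.24. By slide row it was -0.54 in row 1 and -0.13 in row 2, and scaling to the 75th percentile gave -0.67 (limma adjusted p = 0.127).

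Scnn1b had the lowest estimate of the 9 genes tested. Its signal was 9.61, 9.11 and 8.39 in controls and 8.65, 8.41 and 8.28 with TGF-β1. Control replicates 1 and 2 were the highest arrays, whereas control replicate 3 lay among the treated cultures. The log2 difference was -0.59 (SE 0.30, 95% interval -1.29 to 0.12, limma adjusted p = 0.286), and it ranged from -0.91 to -0.30 as each array was left out (-0.51 without TGF-β1 replicate 3). Within slide row 1 it was -0.83 and passed in limma (adjusted p = 0.0452), beside 13% of all genes lower there, and in row 2 it was -0.11.

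Scnn1g lies next to Scnn1b on chromosome 7, with 0 protein-coding genes between them in the RefSeq table. It read 15.45, 14.87 and 15.36 in controls and 15.39, 15.02 and 15.52 with TGF-β1. Replicate 2 was the lowest of both groups, and the groups overlapped fully. The log2 difference was 0.08 (SE 0.20, 95% interval -0.39 to 0.56, limma adjusted p = 0.822), and it turned to -0.18 with scaling to the 75th percentile and to -0.019 without TGF-β1 replicate 3. The difference between the subunits themselves was not tested.

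Atp1b1 read 15.54, 15.29 and 15.85 in controls and 14.94, 14.79 and 15.54 with TGF-β1. TGF-β1 replicates 1 and 2 lay below all controls and replicate 3 lay inside the control range. The log2 difference of -0.47 (SE 0.23, 95% interval -1.02 to 0.09) did not pass in limma (adjusted p = 0.283), nor did the -0.69 found without TGF-β1 replicate 3 (adjusted p = 0.0553), whereas the -0.55 within slide row 1 did (limma adjusted p = 0.0446). Scaling to the 75th percentile gave -0.74, which did not pass (limma adjusted p = 0.157). Atp1b3, which encodes another β subunit and was chosen after its value was seen, had a log2 difference of -0.04 (limma adjusted p = 0.940).

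Slc9a3r1 encodes NHERF1, the PDZ scaffold that holds CFTR at the apical membrane. Its detected probe with the brighter signal gave 12.89, 13.07 and 12.90 in controls and 12.40, 12.61 and 12.90 with TGF-β1, replicate 3 again at control level. The log2 difference was -0.32 (SE 0.15, 95% interval -0.68 to 0.04, limma adjusted p = 0.267). The second probe read 10.47, 10.47 and 10.29 in controls against 9.79, 9.76 and 10.07 with TGF-β1, without overlap and with a difference of -0.54. Without TGF-β1 replicate 3 the first probe gave -0.45 (limma adjusted p = 0.0619), and without TGF-β1 replicate 1 it gave -0.20 (limma adjusted p = 0.606).

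**Figure D2:**
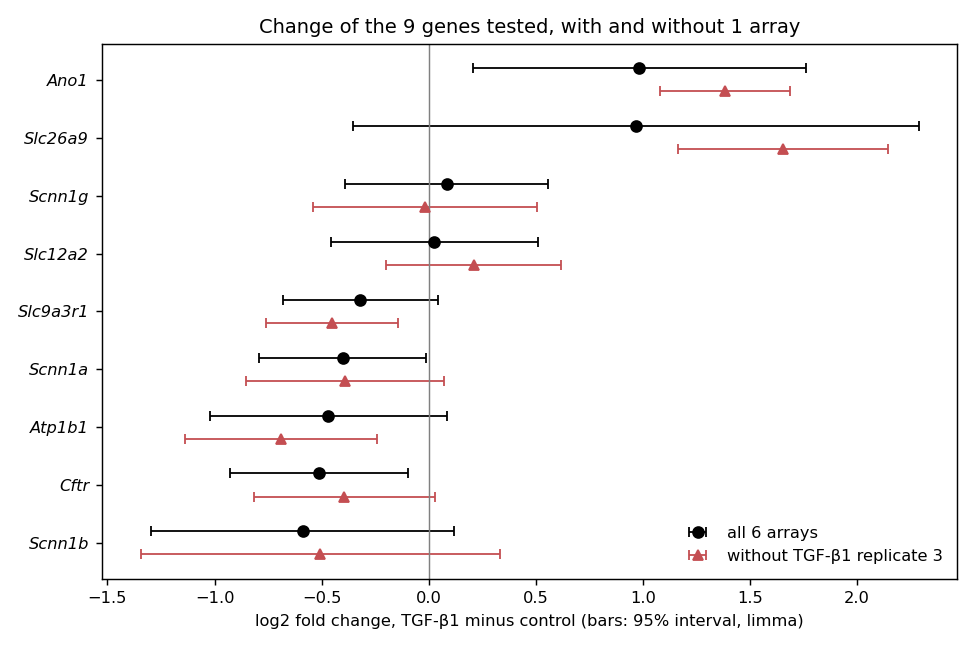
Log2 fold change of the 9 genes tested (x axis, TGF-β1 minus control) with its 95% interval from limma, with all 6 arrays (black circles) and without TGF-β1 replicate 3 (red triangles). Leaving out that array moved Ano1 from 0.98 to 1.38 and Slc26a9 from 0.97 to 1.66 and narrowed both intervals, while Cftr and Scnn1a moved by less than their SE.

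The Ano1 and Slc26a9 differences thus depended on whether TGF-β1 replicate 3 was kept, and the calls for Cftr and Scnn1a did not. Relative to the control mean, Ano1 was 1.40, 1.36 and 0.18 higher in TGF-β1 replicates 1 to 3. Slc26a9 was 1.59 and 1.72 higher in replicates 1 and 2 and -0.41 in replicate 3. Scnn1a gave -0.38, -0.40 and -0.42, and Cftr gave -0.33, -0.46 and -0.75, so that for these 2 genes replicate 3 was at or beyond the others. Array weights, which give less weight to arrays far from their group, called 6 members in limma (Ano1 and Slc26a9 higher, Atp1b1, Scnn1a, Scnn1b and Slc9a3r1 lower), but also 16.8% of all genes as higher and 18% as lower.

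The genes whose profile over the 6 arrays came closest to that of Ano1 were Mia, Cxcr6 and Cnnm4, with root mean square distances of 0.08, 0.10 and 0.10 log2 units among 13516 genes. All 3 were high in TGF-β1 replicates 1 and 2 and near the controls in replicate 3, as Cnnm4 shows with 12.72, 12.88 and 13.14 in controls against 14.13, 14.15 and 13.14. Slc26a9, the nearest other member, ranked 229 at a distance of 0.31. For Scnn1b the closest were Rab37, Shisa7 and Gata3, at 0.09, 0.10 and 0.10, which shared the high controls 1 and 2 and the low control 3. Scnn1a ranked 88 there, at 0.24. These distances describe 6 arrays and carry no test.

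Beyond the 10 genes, 112 other genes of ion and fluid transport in 7 lists were examined, of which 94 could be tested. The changes that passed in limma were 2 increases, Fxyd5 and Furin, and 1 decrease, Nr3c2, a share of 3.19% beside the 2.04% of all genes. At an unadjusted p under 0.05 limma gave 33 of the 94, beside 22.2% of all genes. The estimates were positive for 46 and negative for 48, and their median log2 difference was -0.00. Without TGF-β1 replicate 3 the counts were 15 higher and 5 lower, where 9.08% of all genes were called higher and 6.27% lower. They fell to 0 in both directions without control replicate 1, TGF-β1 replicate 1 or TGF-β1 replicate 2, and to 1 higher and 0 lower without control replicate 2. In these fits, in the same order, 0.516%, 0.467%, 0.39% and 0.593% of all genes were called.

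**Figure D3:**
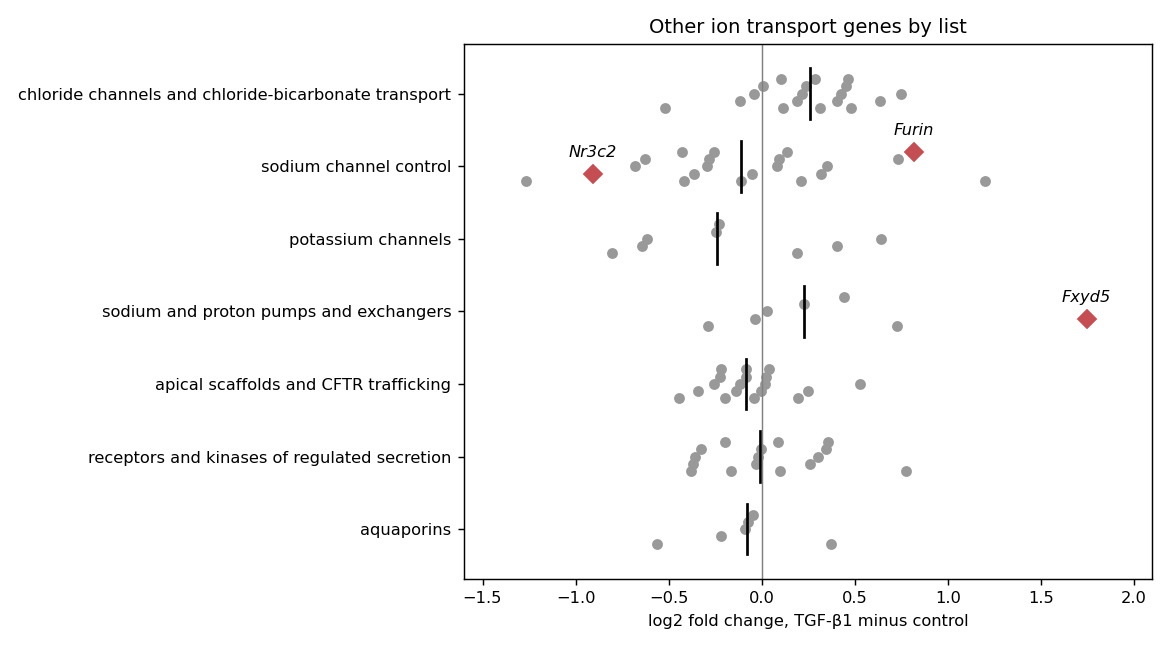
Log2 fold change (x axis, TGF-β1 minus control, all 6 arrays) of the 94 other ion transport genes tested, by list. Each point is a gene, black bars are list medians and red diamonds are genes with an adjusted p under 0.05 in limma, which are Fxyd5, Furin and Nr3c2.

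Fxyd5 encodes dysadherin, a FXYD protein that associates with the Na+/K+-ATPase and affects its β subunit. Its signal was 4.92, 5.42 and 4.64 in controls and 6.78, 6.52 and 6.92 with TGF-β1, with TGF-β1 replicate 3 the highest. It rose by 1.75 on the log2 scale (SE 0.22, 3.35-fold, limma adjusted p = 0.0150), and by 1.57 to 1.96 as each array was left out, with adjusted p from 0.0135 to 0.0782. With the replicate block and with no filter Fxyd5 did not pass (limma adjusted p = 0.0736 and 0.0737). The probe was dim, and after normexp correction the difference was 0.76. Of the 14 pump and exchanger genes 7 could be tested, with a median of 0.23, and 5 more, among them Slc9a3 and Atp12a, were well above background on 0 arrays. Fxyd3, another FXYD gene and chosen after its value was seen, had a log2 difference of 0.73 (limma adjusted p = 0.0529).

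Furin and Nr3c2 belong to the genes that control ENaC. Furin, a protease that cleaves and so activates ENaC and that also matures the TGF-β1 precursor, read 13.36, 13.39 and 13.80 in controls and 14.31, 14.43 and 14.27 with TGF-β1. All treated cultures were above all controls, and Furin rose by 0.82 on the log2 scale (SE 0.15, limma adjusted p = 0.0475). Nr3c2, the mineralocorticoid receptor through which aldosterone raises ENaC, read 7.22, 7.20 and 6.83 in controls and 6.17, 6.03 and 6.32 with TGF-β1. It fell by 0.91 on the log2 scale (SE 0.15, limma adjusted p = 0.0365), and its second probe gave -1.06. Its probe was dim, and after normexp correction the difference was -0.52 (limma adjusted p = 0.0538). As each array was left out, adjusted p ranged from 0.0270 to 0.178 for Furin and from 0.0171 to 0.157 for Nr3c2, with the direction kept. With the replicate block neither passed (limma adjusted p = 0.110 for Furin and 0.108 for Nr3c2), and Furin also missed the threshold with scaling to the 75th percentile (limma adjusted p = 0.0833).

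**Figure D4:**
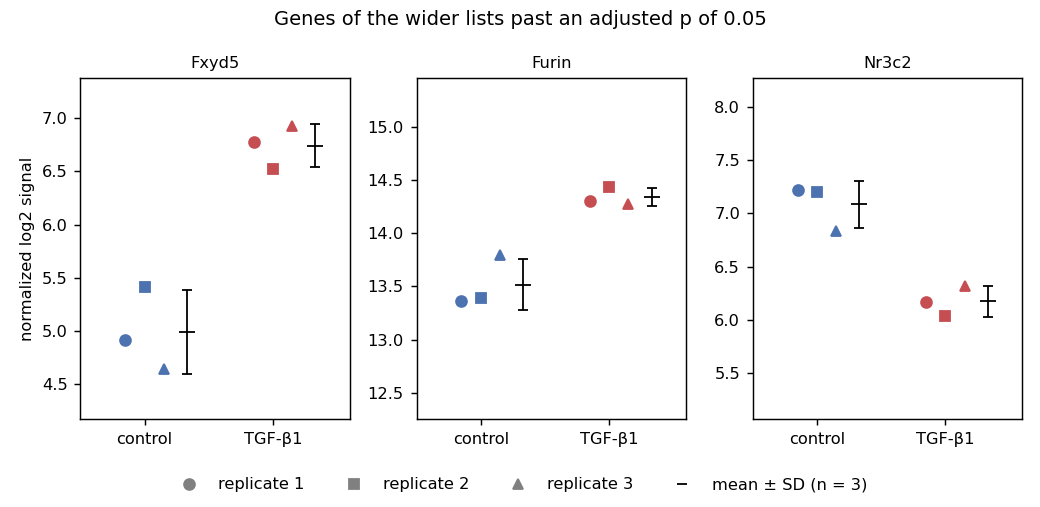
Normalized log2 signal (y axis, a range of its own per gene) of Fxyd5, Furin and Nr3c2 on each array, for control (blue) and TGF-β1-treated (red) 2D-MAOs, with marker shape for the replicate and the mean ± SD (n = 3) in black. For all 3 genes TGF-β1 replicate 3 lies with the other treated cultures and the groups do not overlap.

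With these 2 genes included, the list of genes that control ENaC gave a median log2 difference of -0.11 over 21 of 22 tested, with 9 estimates above 0 and 12 below. The kinase gene Sgk1 (-0.26) and the ubiquitin ligase gene Nedd4l (-0.11), which act in opposite ways on ENaC at the membrane, and the channel-activating protease gene Prss8 (-0.36) did not pass in limma (adjusted p = 0.734, 0.554 and 0.192). Estimates larger in size than that of Nr3c2, chosen after their values were seen, came from the kinase gene Wnk4 at -1.26 (limma adjusted p = 0.0956) and the deubiquitinase gene Usp2 at 1.20 (limma adjusted p = 0.140). For Wnk4, TGF-β1 replicates 1 and 2 read 8.77 and 8.77, replicate 3 read 9.89 and the controls 10.34, 10.34 and 10.54.

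Among other chloride channels and chloride and bicarbonate transporters, 15 of the 18 tested of 20 had estimates above 0, with a median log2 difference of 0.26, and 0 passed in limma. At an unadjusted p under 0.05 limma gave 7 of them, beside 22.2% of all genes. The largest differences were 0.75 for Slc4a7, a sodium bicarbonate cotransporter, and 0.64 for Ano9, a relative of Ano1 (limma adjusted p = 0.140 and 0.102). Ano9 read 10.53, 10.82 and 11.07 in controls and 11.47, 11.54 and 11.32 with TGF-β1, without overlap. Without TGF-β1 replicate 3 both passed in limma, at 0.95 for Slc4a7 and 0.70 for Ano9.

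Apical scaffold and CFTR trafficking genes gave 6 estimates above 0 and 12 below over 18 of 19 tested, with a median of -0.08. In limma 0 passed, and 3 had an unadjusted p under 0.05, beside 22.2% of all genes. The largest among genes well above background on all arrays of a group were Slc9a3r2, the closest relative of Slc9a3r1, at -0.44, and Ezr, which encodes ezrin, the linker between that scaffold and actin, at -0.34 (limma adjusted p = 0.176 and 0.127). Ezr read 16.09, 16.00 and 15.99 in controls and 15.72, 15.66 and 15.68 with TGF-β1, and the second probe of Slc9a3r2 gave -0.34.

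Markers of airway and other lung cell types are given beside these results, with single genes chosen after their values were seen, and their part in the results was not tested. Of the 7 ionocyte markers 4 were well above background on all 6 arrays, and the defining factor Foxi1 was on 1 of 3 control and 3 of 3 TGF-β1 arrays, at a log2 difference of 0.14. The summed linear signal of the ionocyte markers was 704 to 805 in controls and 1531, 1413 and 778 in TGF-β1 replicates 1 to 3. Most of the sum in TGF-β1 replicates 1 and 2 came from Moxd1. It read 7.31, 7.39 and 7.53 in controls and 10.14, 9.95 and 8.24 with TGF-β1. Of the 5 ionocyte markers tested 2 had estimates above 0 and 3 below, with a median of -0.41. In limma 0 of them passed, and 3 had an unadjusted p under 0.05, beside 22.2% of all genes. Those 3 were Ascl3 at -1.03, Tfcp2l1 at -0.41 and Moxd1 at 2.03 (limma adjusted p = 0.107, 0.152 and 0.0901). Ascl3 and Moxd1 passed without TGF-β1 replicate 3, at -1.34 and 2.64 (limma adjusted p = 0.00556 and 0.00128).

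All 6 basal cell markers were above background on all arrays, with a summed signal of 98243 to 127701 in controls and 283956, 270672 and 154799 in TGF-β1 replicates 1 to 3. Replicate 3 had the lowest treated value in the ionocyte and basal sums. The same held for the epithelial (315873), type 1 alveolar (256488), type 2 alveolar (21876), fibroblast (708) and endothelial (111) sums. Krt17 rose by 1.06 on the log2 scale (limma adjusted p = 0.0472) and by 1.23 without TGF-β1 replicate 3. The other basal markers did not pass in limma. Krt14, Krt5 and Ngfr were at 1.55, 1.37 and 1.36 (adjusted p = 0.0859, 0.179 and 0.154). Trp63 was at 0.18 and Krt15 at -1.06 (limma adjusted p = 0.332 and 0.353). The summed signal of the 6 club cell markers, taken almost wholly by Cyp2f2, was 164927 to 172038 in controls and 156432 to 163999 with TGF-β1. Within that list Scgb1a1 read 10.83, 10.18 and 7.77 in controls and 7.00, 7.57 and 7.42 with TGF-β1, a log2 difference of -2.27 in which control replicate 3 lay near the treated cultures, whereas Scgb3a2 was at 1.05 (limma adjusted p = 0.158 and 0.117). Of the 10 ciliated cell markers only Foxj1 passed in limma. It rose by 1.47 on the log2 scale (limma adjusted p = 0.00238), and also by 1.47 without TGF-β1 replicate 3. The 10 gave 8 estimates above 0 and 2 below (Tekt4 at -0.35 and Rsph1 at -0.27), with a median of 0.28. Their summed signal, carried mostly by Mcidas and Tppp3, was 5074 to 5554 in controls and 6793 to 7357 with TGF-β1. Of the 7 type 1 alveolar markers tested 2 had estimates above 0 and 5 below, with a median of -0.09, and 0 passed in limma. The lowest estimate among them was -0.75 for Clic5 (limma adjusted p = 0.180). The type 1 alveolar markers summed to 282938 to 320282 in controls and 256488 to 298997 with TGF-β1.

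The 8 fibroblast markers summed to 577 to 648 in controls and to 2710, 1207 and 708 in TGF-β1 replicates 1 to 3. With the main processing Col1a1 and Col1a2 were at least 2.59-fold and 2.38-fold higher with TGF-β1 (limma adjusted p = 0.00910 and 0.0162), bounds because no control array showed either gene well above background. After normexp correction their log2 differences were 0.60 and 0.43 (limma adjusted p = 0.0416 and 0.0858), smaller than these bounds, and Col1a2 no longer passed. Thy1, Dcn and Pdgfra were well above background on all 6 arrays, with log2 differences of 2.47, 1.00 and 0.21 (limma adjusted p = 0.176, 0.273 and 0.484), and Pdgfrb, Lum and Tcf21 were on 0 arrays. Thy1 and Scgb3a2 passed without TGF-β1 replicate 3, at 3.58 and 1.27 (limma adjusted p = 0.00212 and 0.0331). Of the 8 leukocyte markers 5 were well above background on all arrays, with a median log2 difference of 0.01 and 0 passing in limma. Cd68 was at 0.90, Itgam at 0.43, Csf1r at 0.01, Cd3e at -0.24 and Lyz1 at -1.36 (limma adjusted p = 0.147, 0.134, 0.984, 0.395 and 0.167). The summed signal of the leukocyte markers was 10587 to 12360 in controls and 13578 to 14764 with TGF-β1.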

How the data were processed

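Per the file headers and the labels, the authors used Agilent Feature Extraction 11.0.1.1, and the deposited files hold, per spot, an intensity on a linear scale after background subtraction within the array, with no normalization between arrays. The authors normalized log2 signals by quantiles afterwards, and the same was done here with limma 3.58.1 in R 4.3.3. Control spots and spots marked as outliers were dropped. RefSeq accessions were matched to symbols (GRCm38.p6), which named 32991 of 35883 such probes. A gene was represented by its brightest detected probe, required to be well above background on at least 3 of 6 arrays (14345 genes). TGF-β1 and control (3 arrays each) were compared with lmFit and eBayes without further terms, with Benjamini-Hochberg adjustment over all genes tested and a threshold of 0.05. Permutation tests were exact and two-sided. Array number limits the precision. Alternatives changed scaling, background, filter, probe choice, test, prior, weights, blocks and arrays kept. The planned normexp alternative used the median spot signal in place of the mean, with an offset of 50. The fit was tested on simulated data.

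The members and gene lists were chosen with earlier results of these data known. Named genes were all members with every probe, all genes past the threshold or otherwise the 2 largest changes of each ion transport list among genes well above background on at least 3 arrays of 1 group, and the 3 profiles nearest to the members with the largest increase and decrease. Genes represented only by probes without a RefSeq accession were not analysed here.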

Additional observations from a re-analysis of the deposited data

How the results depend on the processing

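With 6 arrays, no member passed in limma under all but 3 alternatives: array weights gave 2 members higher and 4 lower, the 4 arrays of slide row 1 (an alternative chosen after the data were seen) gave 2 higher and 2 lower, and leaving out 1 array gave 0 to 2 higher (2 without TGF-β1 replicate 3) and 0 lower. For the other ion transport lists, 2 genes were higher and 1 lower. Leaving out 1 array gave 0 to 15 higher and 0 to 5 lower. Higher and lower counts were 0 and 0 with no filter, 12 and 11 by the methods' t-test unadjusted and 1 and 0 adjusted, 4 and 2 with a trended robust prior, 27 and 16 with array weights, and 20 and 9 within slide row 1, where array weights called 34.7% and slide row 1 26.8% of all genes. Over all genes, no filter called 0.323%, the methods' t-test 17.1% unadjusted and 0.0627% adjusted, and the trended robust prior 3.53%. Scaling to the 75th percentile gave 1 higher, normexp 4 higher and slide row as a block 2 lower, beside 2.29%, 2.94% and 2.75% of all genes called. The replicate numbers did not pair the samples (correlations of deviations -0.008, 0.333 and -0.047, with 2 of 6 arrays correlating best with their own number). With the replicate block the counts were 0 higher and 0 lower, beside 0.725% of all genes called. Signs turned for Scnn1g (-0.18 by the 75th percentile, -0.0048 with array weights, -0.093 to 0.23 leaving out 1 array), Slc12a2 (-0.24 by the 75th percentile, -0.074 to 0.21 leaving out 1 array) and Vipr1 (0.37 as the mean of its probes). The cause was not tested. Of the other values for single genes under an alternative, 325 kept their direction and side of the threshold, 39 newly passed and 22 no longer passed. Signal over background limits Slc26a4, Slc26a9, Fxyd5, Nr3c2, Aqp9 and Vipr1, of which normexp took Nr3c2 from -0.91 to -0.52 and Vipr1 from -0.38 to -0.15.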

Other observations

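Potassium channels, which set the driving force for chloride secretion, had estimates below 0 in 5 of the 8 genes tested of 12, with a median log2 difference of -0.24. In limma 0 passed, and 3 had an unadjusted p under 0.05, beside 22.2% of all genes. Kcnq1, the pore subunit of a basolateral channel, read 11.40, 11.59 and 11.22 in controls and 10.67, 11.09 and 10.52 with TGF-β1, without overlap. Its log2 difference was -0.64 (limma adjusted p = 0.125), and its 3 other probes gave -0.71, -0.34 and -0.52. Kcnk5, a potassium channel of the K2P family, read 8.70, 8.11 and 8.24 in controls and 7.77, 7.16 and 7.71 with TGF-β1, all treated cultures below all controls, at -0.80 (limma adjusted p = 0.124). Without TGF-β1 replicate 3, Kcnq1 was at -0.53 and Kcnk5 at -0.89 (limma adjusted p = 0.0936 and 0.0633).

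Receptors and kinases of regulated secretion had a median of -0.01 over 16 of 19 genes tested. In limma 0 passed, and 6 had an unadjusted p under 0.05, beside 22.2% of all genes. Itpr3, which encodes a receptor that releases calcium from internal stores, read 14.81, 14.83 and 15.23 in controls and 15.84, 15.82 and 15.54 with TGF-β1. Its log2 difference was 0.78 (limma adjusted p = 0.0667), with all treated cultures above all controls, and it passed without TGF-β1 replicate 3 at 0.87 (limma adjusted p = 0.0235). For Vipr1, the receptor gene for vasoactive intestinal peptide, the representing probe gave -0.38 (limma adjusted p = 0.132) and its second probe 1.11, so no direction is given. All 6 aquaporin genes were tested, with a median of -0.08. In limma 0 passed, and 2 had an unadjusted p under 0.05, beside 22.2% of all genes. Aqp5, the apical water channel of lung epithelium, was at -0.09, Aqp9 at -0.56 and Aqp4 at 0.37 (limma adjusted p = 0.599, 0.202 and 0.225), and the dim Aqp9 probe gave -0.18 after normexp correction.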
